A study of Mus musculus with 21 samples.

Results

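Collagen chain genes were taken as every gene of the count table whose symbol was Col, a number, the letter a and a number, which gave 44 of 55341 genes. The RNA came from mouse fibro-adipogenic progenitors (FAPs), the Pdgfra-positive mesenchymal cells of skeletal muscle that lay down matrix after injury and can become fibroblasts or fat cells. Per the labels, adult mice received tamoxifen for 5 days, rested 7 days and had a muscle injured with cardiotoxin. FAPs were sorted 5 days after the injury and expanded for 4 to 5 days on dishes coated with extracellular matrix, so the cells were measured after culture. Prdm16 encodes a zinc-finger transcriptional regulator with a PR domain.

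The Prdm16 group carried Prdm16Flox/Flox::PdgfrαCre-ERT/+, a tamoxifen-inducible Cre expressed from the Pdgfra locus together with floxed Prdm16 alleles. The WT group carried Prdm16Flox/Flox::Pdgfrα+/+, which has the same floxed alleles and no Cre, so WT names animals without recombination and not animals without the floxed alleles. RNA was measured in 2 Prdm16 and 3 WT libraries, H3K9me2 domains in 3 Prdm16 and 3 WT libraries, and LaminB1 domains in 1 Prdm16 and 1 WT library. H3K9me2 is a histone mark of silent chromatin and LaminB1 is a protein of the nuclear lamina, at which silent chromatin gathers. Nothing in the labels says that replicates came from separate animals, so every p-value measures the spread between these libraries, which may be technical.

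RNA libraries held 5839587 to 10657791 counts. Several readings went against the labels or set libraries apart. Prdm16 itself had 91 and 86 counts in the Prdm16 libraries, against 171, 94 and 59 counts in the WT libraries, so its count did not separate the genotypes. Reads over exons that Cre leaves in place cannot show the deletion. The authors' p-values were matched to within 1% for 32193 of 32193 genes by a DESeq2 test that set Prdm16 replicate 2 together with WT replicate 3 against the other 3 libraries. The grouping of the labels matched 523 of those genes. The labels of WT replicate 3 and Prdm16 replicate 1 thus went against the authors' grouping. These 2 are called the doubtful libraries here. Values without them are given for some results only, so a result without such a value may have changed too. Leaving both out leaves Prdm16 replicate 2 against WT replicates 1 and 2, so the lone Prdm16 library is assumed to vary like the WT pair. The library labelled Prdm16 replicate 2 also had 15 counts of Xist and 181 to 436 counts of each of 4 Y-linked genes, while the other 4 libraries had at least 3483 counts of Xist and at most 2 of any Y-linked gene. Levels are given in CPM (a gene's counts scaled to a common library total). Summed over a list of 14 interferon-stimulated genes, the level was 3121 and 241 CPM in the libraries labelled Prdm16. In those labelled WT it was 3419, 3865 and 195 CPM. In values without both doubtful libraries, genotype thus cannot be told apart from the Xist, Y-linked and interferon differences. Of 10 FAP markers, 8 passed the filter on low counts, with Pdgfra at 587 to 761 CPM in Prdm16 and 471 to 950 CPM in WT libraries, while Dpp4 and Gli1 were at 2.49 CPM or less. Summed over their lists, macrophage markers were at 5.29 to 6.93 CPM, with Adgre1 at 0 in every library, and endothelial markers at 3.56 to 7.59 CPM, with Tie1 at 0 in every library. A list of 8 muscle genes summed to 438 and 362 CPM in Prdm16, against 127, 169 and 418 CPM in WT, so muscle genes were detected in all 5 libraries.

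Collagens are secreted proteins built from 3 chains wound into a helix, and each chain has its own gene. Fibrillar collagens form the banded fibrils of connective tissue, type IV forms the sheet of basement membranes, and type VI forms beaded filaments around cells. Other classes decorate fibrils, span the plasma membrane or anchor basement membranes to stroma. In muscle, FAPs are the main source of the interstitial collagens, which are laid down for a time during repair and accumulate in fibrosis. Chains are hydroxylated, glycosylated and folded in the endoplasmic reticulum, trimmed by proteinases after secretion and cross-linked by lysyl oxidases.

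The start regions of 6 chain genes are shown because the results below turn on those genes. Col6a1, Col6a2 and Col6a3 had lower levels in the authors' deposited table, and Col1a2 and Col3a1 were among the most abundant. Col4a5 was the chain whose H3K9me2 over the gene body separated the genotypes. At its start site H3K9me2 did not. Sequences are RefSeq's for build GRCm38.p6, read 5′ to 3′ on the gene's strand, and end just before the annotated start. Capitals mark 4 short motifs searched on both strands, which did not overlap in these windows. They were the GC box (GGGCGG or CCGCCC), the CCAAT box (CCAAT or ATTGG), the TATA box (TATAAA or TTTATA) and the core of the hypoxia element (ACGTG or CACGT). The windows are chr10:76726045-76726294 (minus strand) for Col6a1, chr10:76623631-76623880 (minus strand) for Col6a2, chr1:90844002-90844221 (minus strand) for Col6a3, chr6:4505368-4505617 (plus strand) for Col1a2, chr1:45311288-45311537 (plus strand) for Col3a1 and chrX:141475169-141475369 (plus strand) for Col4a5.
Col6a1: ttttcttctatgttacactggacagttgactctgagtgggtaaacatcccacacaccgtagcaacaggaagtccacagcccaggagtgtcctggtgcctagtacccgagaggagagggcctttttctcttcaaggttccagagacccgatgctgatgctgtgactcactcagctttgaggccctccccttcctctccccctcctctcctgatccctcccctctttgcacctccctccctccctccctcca
Col6a2: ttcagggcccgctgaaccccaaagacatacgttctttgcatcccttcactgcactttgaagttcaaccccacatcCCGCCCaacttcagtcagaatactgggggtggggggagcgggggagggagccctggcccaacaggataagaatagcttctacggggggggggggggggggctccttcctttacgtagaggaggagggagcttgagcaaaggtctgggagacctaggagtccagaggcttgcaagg
Col6a3: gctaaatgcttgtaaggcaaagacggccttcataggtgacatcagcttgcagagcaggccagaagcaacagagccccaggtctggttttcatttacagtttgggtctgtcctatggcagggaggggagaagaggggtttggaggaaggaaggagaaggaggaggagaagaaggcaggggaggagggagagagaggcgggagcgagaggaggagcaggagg
Col1a2: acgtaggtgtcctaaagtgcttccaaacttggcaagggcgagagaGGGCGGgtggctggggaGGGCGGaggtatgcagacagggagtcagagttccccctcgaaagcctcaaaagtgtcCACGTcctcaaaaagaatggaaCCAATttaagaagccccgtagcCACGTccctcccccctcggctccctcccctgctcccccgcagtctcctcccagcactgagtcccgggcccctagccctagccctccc
Col3a1: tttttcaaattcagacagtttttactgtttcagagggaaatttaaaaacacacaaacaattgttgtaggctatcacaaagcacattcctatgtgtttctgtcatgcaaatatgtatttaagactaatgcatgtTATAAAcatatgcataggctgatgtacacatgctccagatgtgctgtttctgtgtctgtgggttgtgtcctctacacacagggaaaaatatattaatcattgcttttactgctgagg
Col4a5: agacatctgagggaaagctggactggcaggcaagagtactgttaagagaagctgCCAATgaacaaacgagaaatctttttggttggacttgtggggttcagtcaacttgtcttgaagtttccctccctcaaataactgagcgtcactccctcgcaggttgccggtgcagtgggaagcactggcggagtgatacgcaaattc

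The 3 type VI windows held 1 match among them, a GC box before Col6a2. Col1a2 held 2 GC boxes, 1 CCAAT box and 2 hypoxia cores in 250 bases of 62.0% G and C, whereas Col3a1, at 35.2% G and C, held a TATA box and none of the others. RefSeq windows were matched for 35 of the 44 chain genes, with 38 windows in all. A GC box was found in 57.9% of those windows, against 32.7% of all 32851 windows of the table. The CCAAT box was in 34.2% of collagen windows and 33.8% of all, the TATA box in 13.2% and 12.4%, and the hypoxia core in 13.2% and 16.6%. The interferon element, searched on both strands as the core of the interferon-stimulated response element, was in 0 of 38 collagen windows and in 2.98% of all. These are matches of letters and no measure of binding.

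Collagen RNA was abundant in every library and was dominated by 3 fibrillar chains. The 44 genes together took 0.824% and 0.875% of all counts in Prdm16 libraries, against 0.787%, 0.819% and 0.563% in WT libraries. Col1a1, Col1a2 and Col3a1 made up 64.5% and 68.4% of the collagen counts in Prdm16 and 63.2%, 69.0% and 58.5% in WT. The summed level was 8600 ± 667 CPM in Prdm16 (SD, n = 2) and 7251 ± 1604 CPM in WT (SD, n = 3), a difference smaller than the SD among WT libraries, with WT replicate 3 at 5403 CPM and the other 4 libraries between 8073 and 9071 CPM. Of the 44 genes, 38 to 42 had at least 1 count in a given library. Col9a1, a chain of cartilage collagen type IX, had none in any library.

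Read against the labels, the chain genes were not separated by genotype. After the filter on low counts, 33 of 44 were tested, and edgeR's quasi-likelihood test called 0 of them at an adjusted p under 0.05, where 0.0% of 15240 genes were called. Each of the 33 had an adjusted p of 0.9996, and the lowest over all genes was 0.0846. Before adjustment, 1 chain gene, Col11a1, had p under 0.05, against 2.48% of all genes. The other 11 chain genes passed no test because their counts were too low. Of the 33, 20 had a fold change above 0 and 13 below, or 60.6% above, where 50.1% of all genes were. Their median log2 fold change was 0.26, against 0.0005 for all genes. This rested on WT replicate 3: without it the median was -0.0059, with 15 of 31 chain genes above 0, and without both doubtful libraries it was -0.0058, with 16 of 32 above 0. Both Prdm16 libraries lay above all 3 WT libraries for 4 chain genes (Col8a1, Col11a1, Col25a1 and Col28a1; 8.83% of all genes) and below them for 1 (Col4a5; 8.96%). The standard error of the log2 fold change had a median of 0.51 among chain genes and 0.34 among all genes, so differences of about that size could not be told from the spread between libraries. Here as throughout, fewer cells of a type and less RNA per cell cannot be told apart.

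**Figure D1:**
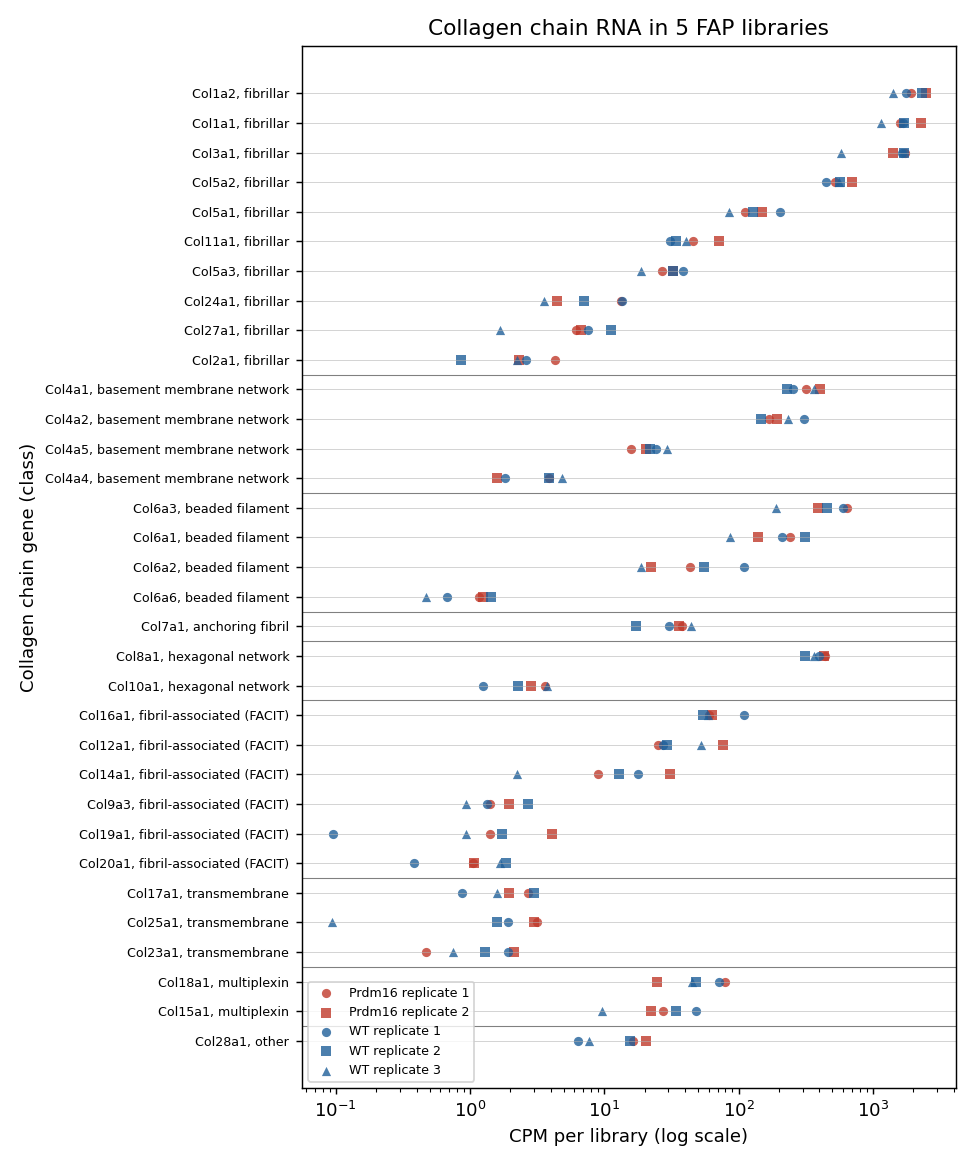
RNA level of each tested collagen chain gene in CPM (log axis), grouped by collagen class, with a point for each library (red Prdm16, blue WT). Col1a1 and Col1a2 stand at 1155 to 2483 CPM in all 5 libraries, and for most genes the points of the genotypes overlap.

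The library labelled WT replicate 3 was the lowest of the 5 for 15 of the 33 tested chain genes (45.5%), against 23.1% of all tested genes. Centred on each gene's own mean log2 CPM, the median over the 33 genes was 0.11 and 0.17 in Prdm16 libraries and 0.15, 0.12 and -0.45 in WT libraries. The low WT median thus came from 1 library. The same library had 1850 CPM summed over 10 FAP markers, against 2730 to 3863 CPM in the other 4, and its pericyte and smooth-muscle list was the highest at 453 CPM, against 191 to 280 CPM. Of those 453 CPM, 356 were Acta2 and 83.9 were Cspg4, both highest in that library. Rgs5 (7.56 CPM) and Notch3 (5.60 CPM) were lowest in it, and Myh11 and Kcnj8 were at 0.560 CPM or less in every library. Among FAP markers, Pdgfra, Ly6a, Dcn, Pi16, Hic1 and Tcf7l2 were lowest in WT replicate 3, whereas Cd34 (317 CPM) and Osr1 (43.3 CPM) were not. The part of these differences in the collagen levels was not tested.

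**Figure D2:**
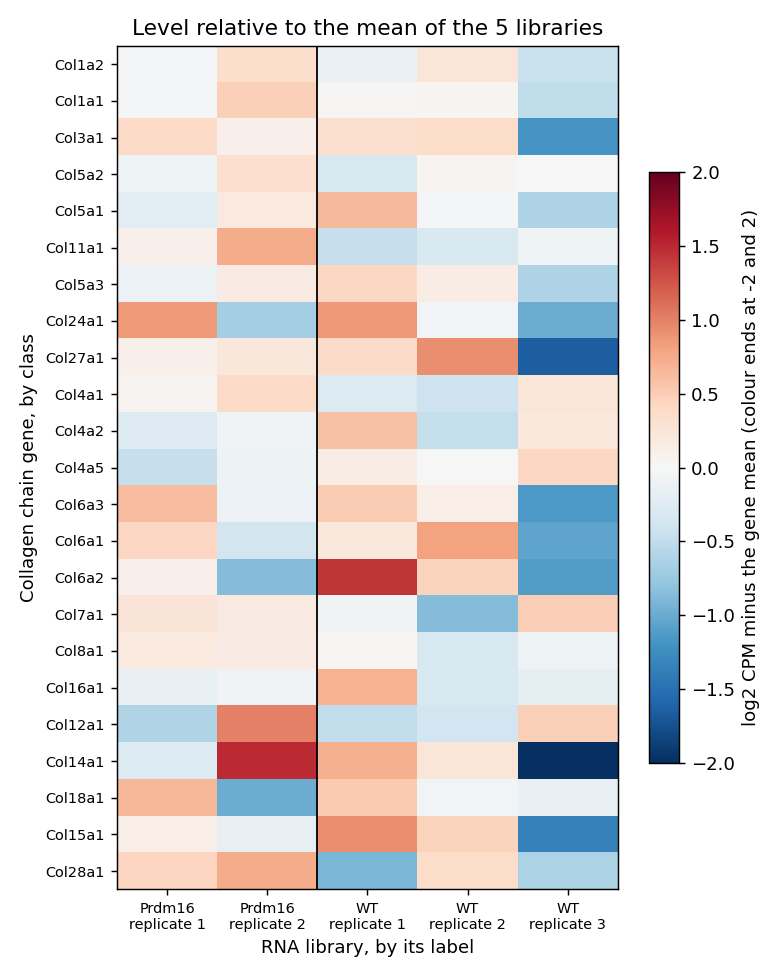
Level in each library of the 23 collagen chain genes whose average reached 5 CPM, as log2 CPM minus the gene's mean over the 5 libraries, with columns for Prdm16 replicates 1 and 2 and then WT replicates 1 to 3. In WT replicate 3 the darkest blue, furthest below the mean, is at Col14a1, Col27a1, Col15a1 and Col3a1, with Col6a3, Col6a2 and Col6a1 close behind.

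Of the fibrillar chains, 10 of 11 were tested, with 7 fold changes above 0 and 3 below and a median of 0.24 on the log2 scale. Type I collagen, the main fibril of tendon, bone and scar, was highest. Col1a2, at chr6:4505618-4541543, had 1917 and 2483 CPM in Prdm16 libraries, against 1777, 2308 and 1422 CPM in WT libraries. Col1a1, at chr11:94936224-94953042, had 1597 and 2296 CPM in Prdm16, against 1681, 1708 and 1155 CPM in WT. The ranges overlapped for both, with log2 fold changes of 0.26 (SE 0.25) and 0.36 (SE 0.25). Col3a1, the type III chain that is laid down early in healing, had 1725 and 1423 CPM in Prdm16 libraries, against 1645, 1697 and 584 CPM in WT libraries. Only WT replicate 3 was far from the rest, and the log2 fold change was 0.27 (SE 0.44). Without both doubtful libraries, the log2 fold change of Col3a1 was -0.25.

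Type V and type XI chains sit inside fibrils and help set their diameter. Col5a2 had 525 and 701 CPM in Prdm16, against 447, 575 and 562 CPM in WT. It lies next to Col3a1 on chromosome 1, yet its lowest library was WT replicate 1 and not WT replicate 3. Col5a1 had 111 and 148 CPM in Prdm16 libraries, against 204, 128 and 84.3 CPM in WT libraries, and Col5a3 spanned 18.9 to 38.8 CPM. Col11a1, at chr3:114030479-114220756, had 45.9 and 71.6 CPM in Prdm16, against 30.8, 34.3 and 40.3 CPM in WT. Its means were 58.7 ± 18.2 CPM in Prdm16 (SD, n = 2) and 35.1 ± 4.82 CPM in WT (SD, n = 3), and both Prdm16 libraries were above every WT library. The log2 fold change was 0.74 (SE 0.26), with an unadjusted p of 0.0212 and an adjusted p of 0.9996 by edgeR. Without both doubtful libraries it was 1.12. Some markers of tendon and muscle cells had no overlap between genotypes either, such as Thbs4 at 66.2 and 125 CPM in Prdm16, against 37.1, 35.1 and 29.9 CPM in WT, and Myh3 at 156 and 114 CPM in Prdm16, against 34.3, 45.0 and 85.3 CPM in WT. Over the 6 tenocyte markers, 4 had fold changes above 0 and 2 below, with a median of 1.07 on the log2 scale. Of these 6, 2 lay above all WT libraries and 2, Scx and Egr1, below them. Of 7 tested muscle markers, 6 had fold changes above 0 and 1 below, with 2 above all WT libraries and 0 below them. Over all genes the shares were 8.83% above and 8.96% below. The part of these markers in the Col11a1 value was not tested. Col24a1 had 13.3 and 4.44 CPM in Prdm16, against 13.5, 7.02 and 3.55 CPM in WT, and Col27a1 spanned 1.68 to 11.2 CPM. The log2 fold change of Col24a1 was 0.16 (SE 0.65), and -1.24 without both doubtful libraries. Col2a1, the cartilage chain, stayed at 0.860 to 4.32 CPM.

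Type VI collagen links cells to the surrounding fibrils, and mutations in its genes cause muscular dystrophy in people. Its level varied more between libraries of 1 genotype than between genotypes. Col6a3, at chr1:90766860-90844001, had 647 and 388 CPM in Prdm16 libraries, against 597, 459.8 and 189.8 CPM in WT libraries. Col6a1 had 242 and 140.3 CPM in Prdm16, against 210.1, 315 and 86.9 CPM in WT. Col6a2 had 43.5 and 22.2 CPM in Prdm16, against 110.0, 55.5 and 18.7 CPM in WT. In each of the 3 genes Prdm16 replicate 2 and WT replicate 3 were the lowest, and the genotypes overlapped. The log2 fold changes were 0.32 (SE 0.49) for Col6a3, -0.09 (SE 0.55) for Col6a1 and -0.90 (SE 0.77) for Col6a2. Without both doubtful libraries they were -0.47 for Col6a3, -0.93 for Col6a1 and -1.92 for Col6a2, and none of the 3 passed the adjusted threshold in edgeR. Type VI chains together took 11.5% and 6.09% of the collagen counts in Prdm16, against 11.4%, 10.1% and 5.48% in WT. The other chains, Col6a4, Col6a5 and Col6a6, were at 1.43 CPM or less.

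Type IV chains form the meshwork of basement membranes, and 4 of 6 were tested, with 1 fold change above 0 and 3 below. Col4a1 had 319 and 402 CPM in Prdm16 libraries, against 255, 229.9 and 366 CPM in WT libraries (log2 fold change 0.34, SE 0.24). Its partner Col4a2 had 169.8 and 192 CPM in Prdm16, against 306, 146 and 233 CPM in WT (log2 fold change -0.33, SE 0.30). Both overlapped between genotypes. Without both doubtful libraries the log2 fold change was 0.70 for Col4a1. The pair is transcribed from a shared start region on chromosome 8, where the annotated genes overlap from 11312805 to 11312889. How reads in the overlap were counted is not stated, and their part in these values was not tested. Col4a5, at chrX:141475370-141689236, had 15.9 and 20.4 CPM in Prdm16, against 24.2, 21.9 and 29.1 CPM in WT. Both Prdm16 libraries lay below every WT library, with a log2 fold change of -0.47 (SE 0.26), an unadjusted p of 0.111 and an adjusted p of 0.9996 by edgeR. Without both doubtful libraries it was -0.20. Col4a3, Col4a4 and Col4a6 were at 4.85 CPM or less.

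Of the network and anchoring chains, Col8a1 was the most abundant. Type VIII collagen forms hexagonal lattices beneath endothelium and around vessels. Col8a1 had 443 and 437 CPM in Prdm16 libraries, against 401, 312 and 366 CPM in WT libraries. Both Prdm16 libraries were above every WT library, with means of 440 ± 4.45 CPM in Prdm16 (SD, n = 2) and 360 ± 44.9 CPM in WT (SD, n = 3). Its log2 fold change of 0.29 (SE 0.18) had an adjusted p of 0.9996 by edgeR. Col8a2, its relative, had 2 and 14 counts in Prdm16 and 0, 0 and 1 count in WT, too few to test. Col7a1, which makes the anchoring fibrils of skin, had 38.1 and 36.1 CPM in Prdm16, against 30.3, 17.3 and 44.6 CPM in WT. Col10a1, the chain of hypertrophic cartilage, was at 1.25 to 3.73 CPM.

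Fibril-associated chains coat fibrils and carry other domains outward. Of 9 such genes, 6 were tested, with 4 fold changes above 0 and 2 below. Col12a1 had 24.98 and 76.7 CPM in Prdm16 libraries, against 27.2, 29.4 and 53.0 CPM in WT libraries. Its highest libraries were Prdm16 replicate 2 and WT replicate 3. The log2 fold change was 0.47 (SE 0.51), and 1.42 without both doubtful libraries. Col16a1 had 60.1 and 63.6 CPM in Prdm16, against 109, 54.5 and 59.2 CPM in WT, with WT replicate 1 alone above the rest. Col14a1 had 8.99 and 31.1 CPM in Prdm16, against 17.9, 12.9 and 2.24 CPM in WT. Col19a1 had 1.40 and 4.08 CPM in Prdm16, against 0.0962, 1.72 and 0.933 CPM in WT. Both overlapped between genotypes.

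Multiplexins are basement-membrane collagens with a heparan or chondroitin sulphate chain. Col15a1 had 27.3 and 22.4 CPM in Prdm16 libraries, against 47.9, 34.3 and 9.61 CPM in WT libraries. Col18a1, whose C-terminal fragment is endostatin, had 79.3 and 24.9 CPM in Prdm16, against 71.6, 48.0 and 45.1 CPM in WT. Neither separated the genotypes. Their log2 fold changes were -0.30 (SE 0.62) for Col15a1 and -0.07 (SE 0.48) for Col18a1, and -0.90 and -1.29 without both doubtful libraries. Col28a1, a chain of type XXVIII collagen, had 16.5 and 20.4 CPM in Prdm16, against 6.35, 15.6 and 7.74 CPM in WT. Both Prdm16 libraries were above all WT libraries, with a log2 fold change of 0.90 (SE 0.42), an unadjusted p of 0.0634 and an adjusted p of 0.9996 by edgeR. Col25a1, a transmembrane chain, had 3.15 and 3.02 CPM in Prdm16, against 1.92, 1.58 and 0.0933 CPM in WT, again with no overlap, at a level of few counts. Its log2 fold change was 1.38 (SE 0.88), and 0.75 without both doubtful libraries. The other transmembrane chains, Col13a1, Col17a1 and Col23a1, were at 3.01 CPM or less.

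**Figure D3:**
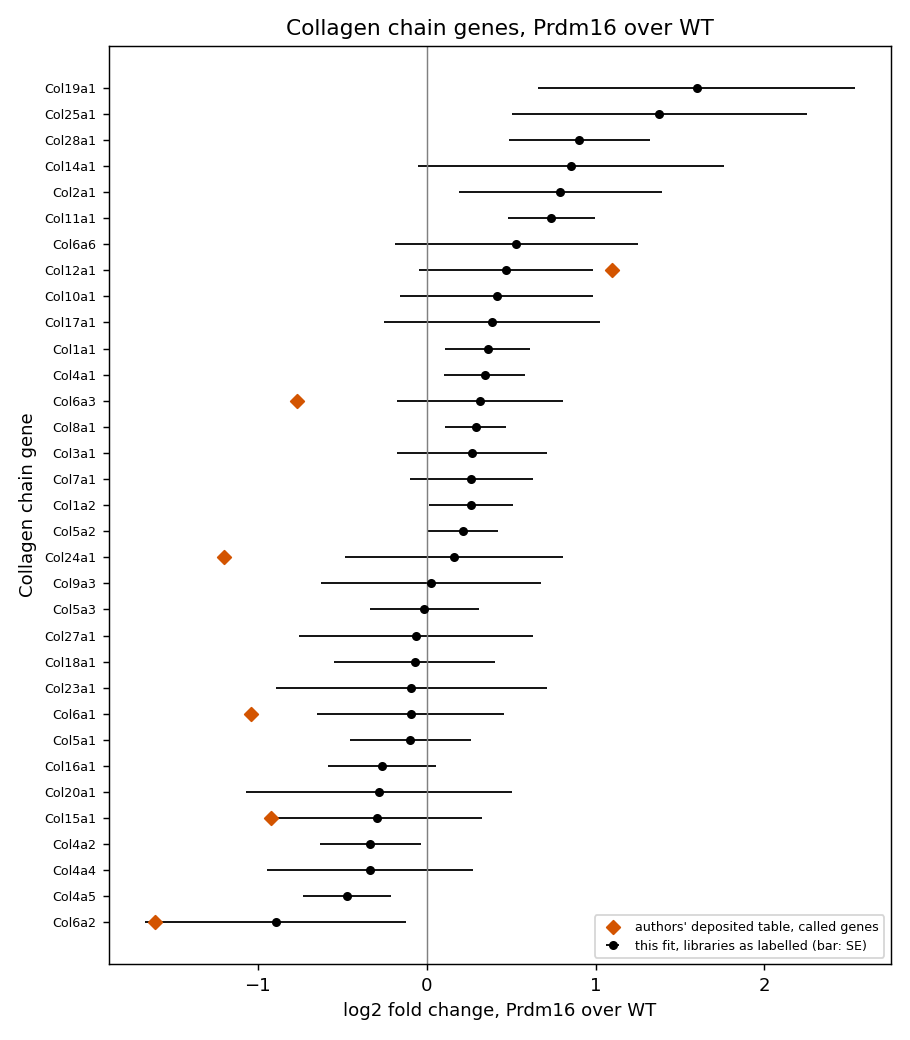
Log2 fold change of Prdm16 over WT for each tested collagen chain gene from edgeR, with a bar of 1 standard error on each side, ordered by size, and the authors' called values as diamonds. The median of the points is 0.26, and no gene passed an adjusted p of 0.05.

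The authors' deposited table gave 16 of the 44 chain genes an adjusted p and called 6 of them. It was made with the grouping described above, not with that of the labels, and its log2 fold changes are the authors' own. In the authors' deposited table, 5 chain genes were lower, with log2 fold changes of -1.61 for Col6a2 (adjusted p 0.000374), -1.20 for Col24a1 (0.0145), -1.04 for Col6a1 (0.00219), -0.92 for Col15a1 (0.0596) and -0.77 for Col6a3 (0.0296). In the authors' deposited table, 1 chain gene was higher, Col12a1 by 1.10 (adjusted p 0.00126). The same table called 5.58% of its 6237 genes with an adjusted p lower and 1.97% higher. By library, all 3 type VI chains were lowest in Prdm16 replicate 2 and WT replicate 3, and Col12a1 was highest in those libraries. The authors' grouping set those libraries together, so this restates the calls and is no separate evidence for them.

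Chains can be compared within a library, since the ratio of their counts does not depend on the library's total. Of the 6 ratios taken, 5 were between chains that assemble together, and Col3a1 to Col1a1 set type III, which has 1 kind of chain, against type I. The ratio of Col4a1 to Col4a2 counts was 1.88 and 2.09 in Prdm16 libraries, against 0.836, 1.58 and 1.57 in WT libraries. Both Prdm16 ratios were above every WT ratio, with a difference of 0.64 on the log2 scale. An exact two-sided permutation test over the 5 libraries gave p = 0.2, the smallest that 2 against 3 libraries can give (0.8 adjusted over 6 ratios). The ratio of Col6a1 to Col6a2 was 5.55 and 6.32 in Prdm16 and 1.91, 5.69 and 4.66 in WT, and that of Col5a1 to Col5a2 was 0.211 and 0.212 in Prdm16 and 0.456, 0.222 and 0.150 in WT. In all 3 of these pairs WT replicate 1 stood apart from the other WT libraries. The ratio of Col1a1 to Col1a2 stayed between 0.740 and 0.946 in the 5 libraries, and that of Col3a1 to Col1a1 was lowest in Prdm16 replicate 2 (0.620) and WT replicate 3 (0.506).

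**Figure D4:**
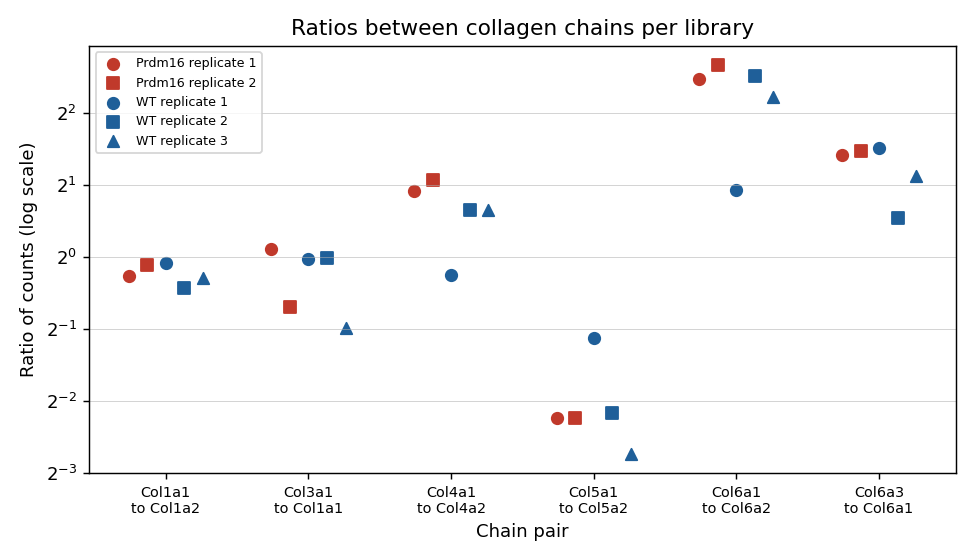
Ratio of counts between collagen chains in each library, on a log axis, for the 6 ratios, with Prdm16 libraries left of WT libraries. The ratio of Col4a1 to Col4a2 is 1.88 and 2.09 in Prdm16 and 0.836 to 1.58 in WT.

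The machinery that makes and handles collagen was read from 4 lists of 59 genes, of which 54 were tested. Of these 54, 36 had fold changes above 0 and 18 below, where 50.1% of all genes were above 0. Of the 54, 0 were called by edgeR (0.0% of all genes). The median log2 fold change was 0.17, against 0.0005 for all genes. Summed over the 4 lists, WT replicate 3 was lowest at 22774 CPM, against 27182 to 35473 CPM in the other libraries. The part of that library in these fold changes was not tested. In the list for hydroxylation, folding and secretion, 11 of 21 tested genes were above 0 and 10 below. Crtap, a subunit of the prolyl 3-hydroxylation complex, had 20.5 and 31.6 CPM in Prdm16 libraries, against 195, 94.2 and 36.1 CPM in WT libraries. All Prdm16 values were below all WT values, with a log2 fold change of -2.06 (SE 0.75), an unadjusted p of 0.0381 and an adjusted p of 0.9996 by edgeR. The next smallest p-values were those of Fkbp14 and P3h3, at log2 fold changes of 0.43 and 0.69. In the authors' deposited table, P4ha2, a prolyl 4-hydroxylase subunit, was higher by 1.11 on the log2 scale. It had 60.7 and 278 CPM in Prdm16, against 70.8, 132 and 164 CPM in WT. A list of 12 hypoxia and glycolysis genes summed to 2803 and 7083 CPM in Prdm16, against 3219, 4616 and 5844 CPM in WT. The part of that difference in the P4ha2 value was not tested.

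In the list for propeptide removal and cross-linking, 10 of 13 tested genes were above 0. Loxl1, a lysyl oxidase relative, had 145 and 129 CPM in Prdm16 libraries, against 502, 139 and 306 CPM in WT libraries, a log2 fold change of -1.20 (SE 0.52). Pcolce2 and Bmp1, which act in removing the procollagen C-propeptide, were at 0.69 and 0.45. In the authors' deposited table, the proteinase Tll1 was higher by 1.44 and the oxidase Loxl4 by 0.96 on the log2 scale. With the grouping of the labels they were at 0.46 (SE 0.69) and 0.35 (SE 0.56). Both were highest in Prdm16 replicate 2 and WT replicate 3, which the authors' grouping set together. Lox, the founding cross-linking enzyme, had 859 and 2518 CPM in Prdm16, against 1015, 1164 and 947 CPM in WT, with Prdm16 replicate 2 alone high. Of 9 tested receptors, 8 were above 0. Itga2, the alpha chain of a collagen-binding integrin, had 41.8 and 64.8 CPM in Prdm16, against 39.1, 20.2 and 31.5 CPM in WT, with no overlap and a log2 fold change of 0.81 (SE 0.32). Itga11 had 3.74 and 47.2 CPM in Prdm16, against 10.00, 14.2 and 2.33 CPM in WT, so its log2 fold change of 1.53 (SE 1.198) came with Prdm16 replicate 2 alone high. Cd44 was at 0.29 (SE 0.27). Of 11 tested fibril-binding partners, 7 were above 0. Fmod, which binds fibrils and guides their assembly, had 1.98 and 9.24 CPM in Prdm16, against 2.02, 1.58 and 1.12 CPM in WT, and Lum had 94.9 and 88.8 CPM in Prdm16, against 60.03, 38.3 and 8.12 CPM in WT. Fn1, fibronectin, was at a log2 fold change of 0.58 (SE 0.29).

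The chromatin of the chain genes was read as the share of each gene body lying inside the authors' domains, on mm10 coordinates. All 44 chain genes were located. Of these, 35 (79.5%) had no domain base in any of the 8 libraries, against 63.4% of all 37645 located genes. Of those tested in RNA, 81.8% of chain genes and 90.3% of all genes had none. H3K9me2 covered at least 50% of the gene body in no library for 37 chain genes, or 84.1%, where 74.1% of all genes and 82.6% of protein-coding genes were such. Among genes tested in RNA the order was the other way, with 87.9% of chain genes and 93.1% of all genes free of it. The genes so free of domains included Col1a1, Col1a2, Col3a1 and the type VI genes with abundant RNA.

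The chain genes with H3K9me2 were few. In all 6 libraries, 1 chain gene was covered (5.03% of all genes), Col22a1, a chain found at tissue junctions, with 99.7%, 70.2% and 71.0% of its body in Prdm16 libraries and 100%, 63.4% and 88.7% in WT libraries. It was also inside LaminB1 domains over 100% of its body in both libraries, and its RNA was at 0.187 CPM or less. Of genes tested in RNA, which leave out Col22a1, H3K9me2 covered 0 chain genes and 0.663% of all in all 6 libraries. Col4a5 was the 1 chain gene covered in every WT library while no Prdm16 library covered it, a pattern of 0.29% of all genes. Its coverage was 0%, 0% and 0% in Prdm16 libraries, against 100%, 100% and 71.2% in WT libraries. The exact two-sided permutation test gave p = 0.1, the smallest that 3 against 3 libraries allow, and 0.64 adjusted over the 8 chain genes that varied. In all 3 Prdm16 libraries and no WT library 0 chain genes were covered, where 0.114% of all genes were.

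Col4a5 lies on the X chromosome, and domains there differed between libraries. H3K9me2 domains covered 74.5, 40.7 and 12.8 Mb of the X in Prdm16 libraries, against 133.9, 73.0 and 111.7 Mb in WT libraries. At least 50% was covered in 43.2%, 16.9% and 4.61% of X-linked genes in Prdm16, against 72.1%, 37.8% and 57.4% in WT. Of 2041 X-linked genes, 60 (2.94%) had the Col4a5 pattern, against 0.138% of autosomal genes. Its neighbour Col4a6 was covered over 0%, 0% and 0% in Prdm16, against 100%, 100% and 0% in WT. The part of the X-wide difference in the Col4a5 values was not tested. Among the RNA libraries, Prdm16 replicate 2 alone had few counts of Xist (15) and 181 to 436 counts of each Y-linked gene. Whether the domain libraries differed in the same way was not tested.

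A few other chain genes differed between libraries without separating the genotypes. Col25a1 was covered over 98.2%, 98.2% and 100% in Prdm16, against 0%, 100% and 0% in WT, and Col19a1 over 0%, 49.96% and 0% in Prdm16, against 88.2%, 0% and 87.3% in WT. Both overlapped between genotypes. Col9a1 was covered in WT replicate 3 alone (100%) and Col23a1 in Prdm16 replicate 1 alone (64.2%). LaminB1 covered at least 50% of the body of 1 chain gene in both libraries, Col22a1 (12.6% of all genes), of 0 in the Prdm16 library alone (0.287%), of 0 in the WT library alone (8.34%) and of the other 43 in neither (78.7%). Of genes tested in RNA, 100% of chain genes and 98.4% of all had that much LaminB1 in neither library. Each LaminB1 value has 1 library per genotype, so it has no replicate check.

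**Figure D5:**
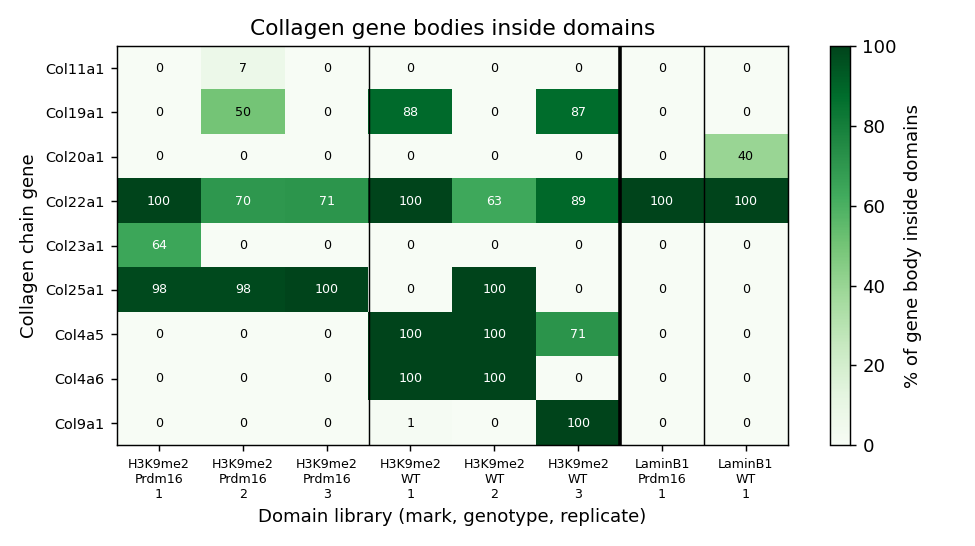
Share of the gene body inside the authors' H3K9me2 and LaminB1 domains, in percent, for the collagen chain genes with any domain base, with Prdm16 libraries left of WT libraries. Col4a5 is at 0% in the 3 Prdm16 H3K9me2 libraries and at 71.2% to 100% in the 3 WT libraries, and Col22a1 is covered in all.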

How the data were processed

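The assays covered RNA in 5 libraries, H3K9me2 domains in 6 and LaminB1 domains in 2. The 8 inputs were left out. SMART-seq2 libraries were made from polyadenylated RNA per the labels. Programs listed in the submitters' processing notes were STAR 2.7, Bowtie 1.2.2, DESeq2 1.20 and featureCounts, with GRCm38, mm10 and dm6 as builds. Their roles, the strand setting and the domain caller were not stated there. The authors deposited raw counts for 55341 genes. Their comparison table held the authors' log2 fold changes, standard errors, p-values and adjusted p-values, and a mean normalized signal made by the authors. The authors' up and down labels followed limits of 0.1 on adjusted p and 0.5 on the log2 value for 55340 of 55341 genes. The deposited domain lists held positions and the authors' score.

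The count model was edgeR 4.0.16 (R 4.3.3) with its default filter (15240 genes), scaling by trimmed mean of M-values, robust quasi-likelihood and Benjamini-Hochberg adjustment at 0.05, two-sided, in libraries grouped as labelled. DESeq2 1.42.0 and limma 3.58.1 served as alternatives. CPM refers to scaled library totals. Reads carried no molecular identifiers as far as the labels say. The fit was checked on simulated counts. Depth of the domain libraries is unknown. Gene bodies and start regions came from RefSeq, GRCm38.p6, where 37645 genes (68%) were located. Exon lengths were not used here, so levels are not compared between genes per length, chains were compared as ratios of counts, and the 12 most abundant chain genes were ranked by CPM. Named were also the 6 with the smallest p, those the authors called and those whose coverage class differed. The chain genes and lists were chosen with earlier results of these data known.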

Additional observations from a re-analysis of the deposited data

How the results depend on the processing

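No collagen chain gene was called under any setting that kept the grouping of the labels. The authors' grouping, which called 6, was not among these settings. Over all genes the count called was 0, against 2 by DESeq2's Wald test, 25 with no filter, 1 with the replicate block, 93 with both doubtful libraries left out (Prdm16 replicate 2 against WT replicates 1 and 2), and 0 to 4 when single libraries were left out. Chain genes whose genotypes did not overlap numbered 5, where 17.8% of all genes did not overlap. They numbered 9 to 16 when single libraries were left out, where 29.2% to 48.2% of all genes did not overlap. With both doubtful libraries left out they numbered 25, where 68.3% of all genes did not overlap. The shares over all genes rose because fewer libraries were left to overlap. Libraries with the same replicate number deviated from their group means with correlations of 0.209 and -0.202, so the numbers were not taken to pair them. The median log2 fold change was 0.26, against -0.0059 to 0.3507 when single libraries were left out, 0.11 with the replicate block and -0.0058 without both doubtful libraries. The log2 ratio of summed levels was 0.07306 to 0.352 when single libraries were left out. Of 250 values for 21 named chain genes under alternatives, 228 kept their direction and 22, in 9 genes, did not. With limma-voom, Col15a1 was at 0.0332 and Col6a1 at 0.0662. With the replicate block, Col24a1 was at -0.31, Col3a1 at -0.0928 and Col6a3 at -0.0642, and without both doubtful libraries at -1.24, -0.25 and -0.47. Leaving out single libraries gave -0.54 to 1.04 for Col12a1, -0.72 to 0.18 for Col15a1, -0.45 to 0.11 for Col16a1, -1.17 to 0.54 for Col18a1, -0.88 to 0.77 for Col24a1, -0.0814 to 0.50 for Col3a1, -0.35 to 0.28 for Col5a1, -0.57 to 0.36 for Col6a1 and -0.12 to 0.66 for Col6a3. The log2 difference of Col3a1 to Col1a1 was -0.35 to 0.45, and -0.67 without both doubtful libraries (ratios were recomputed this way as a choice made after seeing the data), and that of Col5a1 to Col5a2 was -0.59 to 0.21. The cause was not tested. H3K9me2 in all 6 libraries covered 0 chain genes at a share of 0.75 or with domains at or above the median score. It also covered 0 at the start site, which 35 chain genes had. Col22a1 was not among those 35, so it could not be counted there. H3K9me2 in all WT and no Prdm16 libraries covered 0 at 0.75 and at the start site, so Col4a5 did not keep its pattern there. That pattern covered 1 to 2 when single libraries were left out. H3K9me2 in all Prdm16 and no WT libraries covered 0 to 1 when single libraries were left out. LaminB1 in the WT library alone covered 1 at a share of 0.25. LaminB1 in both covered 0 at the start site, again without Col22a1, so this does not show whether the start of Col22a1 is covered. With 2 Prdm16 libraries, small differences in low chain genes are not detectable at this depth.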
